A study of Homo sapiens with 6 samples.

Results

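The genes described here encode enzymes that cut the extracellular matrix and cell surface proteins, and the inhibitors that hold these enzymes in check. They were taken by gene name: MMP, ADAM, ADAMTS or TIMP followed by a number, SERPIN followed by a letter and a number, and PLAU, PLAUR and PLAT. The rule found 46 of the 12659 genes in the deposited table: 10 MMP, 11 ADAM, 9 ADAMTS, 2 TIMP and 12 serpin genes, with PLAU and PLAUR. PLAT, TIMP2, MMP1 and MMP7 are not analysed here. Values come from 3 RNA libraries of NCI-H1650Re, the line labelled post-SCLC, and 3 of NCI-H1650, the parental line labelled pre-LUAD. NCI-H1650 is an established human lung adenocarcinoma line with an activating EGFR deletion, and NCI-H1650Re is its derivative after transformation towards small cell lung cancer, per the series design. Both lines had their polyadenylated RNA sequenced; no treatment is given for either, and the labels name the same parental cell line for all 6 libraries. The labels say neither how NCI-H1650Re was made nor whether it is 1 clone, nor that replicates were separate cultures. The p-values therefore reflect library-to-library spread alone, and that spread may be technical.

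Matrix metalloproteinases (MMPs) and the related ADAM and ADAMTS enzymes use a zinc ion to cut their targets. MMPs degrade collagens and other matrix proteins, ADAMs release growth factors and receptors from the cell surface, and ADAMTS enzymes are secreted and process procollagens and proteoglycans. TIMPs block these metalloproteinases. Plasminogen activators are serine proteases that start a further route, through plasmin. Most serpins trap serine or cysteine proteases in an irreversible complex, although some, such as the collagen chaperone SERPINH1, inhibit no enzyme.

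Estimated depth was 18.1 to 21.6 M fragments per library for NCI-H1650Re and 17.0 to 22.3 M fragments for NCI-H1650. In each line replicate 3 was the library least like the other two, and the calls are therefore also given without both replicate 3 libraries. All 6 epithelial markers looked for (EPCAM, CDH1, KRT7, KRT8, KRT18 and KRT19) were detected, with summed levels of 3017 to 3041 FPKM in NCI-H1650Re and 3456 to 4575 FPKM in NCI-H1650. EPCAM, CDH1, KRT8 and KRT19 were lower in NCI-H1650Re, and KRT7 and KRT18 did not pass. KRT19 moved most, at 37.9 to 116 FPKM in NCI-H1650Re and 644 to 831 FPKM in NCI-H1650 (log2 change -3.59, limma adjusted p = 0.000721). Of 7 neuroendocrine markers CHGA, SYP and DLL3 were measured, together at 7.48 to 11.2 FPKM in NCI-H1650Re and 4.47 to 5.59 FPKM in NCI-H1650. CHGA was higher in NCI-H1650Re (log2 change 1.496, limma adjusted p = 0.0101), and SYP and DLL3 did not pass. The other neuroendocrine markers, the adenocarcinoma markers NKX2-1, NAPSA, SFTPB and SFTPC and the 4 endothelial markers were not analysed here. Of 6 fibroblast markers COL1A1 and COL3A1 were measured, with sums of 23.0 to 40.1 FPKM in NCI-H1650Re and 10.1 to 13.0 FPKM in NCI-H1650. COL3A1 was higher in NCI-H1650Re (log2 change 1.55, limma adjusted p = 0.00277), and COL1A1 did not pass. Of 5 leukocyte markers CD14 was measured, at 0.13 to 0.29 FPKM in NCI-H1650Re and 1.09 to 1.86 FPKM in NCI-H1650. It was lower in NCI-H1650Re (log2 change -1.08, limma adjusted p = 0.00199). The part of these markers in the results below was not tested. In bulk RNA, fewer cells of a type and less RNA per cell cannot be told apart.

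Levels are in FPKM, fragment counts scaled for transcript length and library size, so that levels of different genes can be compared. Changes are differences in mean log2(FPKM + 1), NCI-H1650Re minus NCI-H1650, a scale that understates the change of low genes. Of the 46 genes, 30 reached a mean of 1 FPKM in at least 1 line and were tested with limma. Of these, 24 reached it in both lines, ADAMTS3 and ADAMTS14 only in NCI-H1650Re, and MMP16, SERPINA1, SERPINA3 and SERPINB3 only in NCI-H1650. MMP14 and SERPINB1 were higher in NCI-H1650Re at a Benjamini-Hochberg adjusted p under 0.05, and ADAM9, SERPINA1, SERPINA3, SERPINB3 and SERPINB7 were lower. On GRCh38 (GENCODE 29) these genes span chr14:22836557-22849027 (MMP14), chr6:2832332-2842006 (SERPINB1), chr8:38996869-39105144 (ADAM9), chr14:94376747-94390693 (SERPINA1), chr14:94612377-94624055 (SERPINA3), chr18:63655197-63661963 (SERPINB3) and chr18:63752935-63805376 (SERPINB7). The 2 higher genes were 6.67% of those tested here, against 16.6% of all 11764 tested genes, and the 5 lower ones were 16.7%, against 13.9%. Counting both directions, 23.3% of the 30 passed, against 30.5% of all tested genes. The median log2 change was 0.04, against 0.03 for all tested genes. The libraries of the 2 lines did not overlap for 7 of the 30, the same 7 genes, or 23.3%, against 47.2% of all tested genes. With 3 libraries a line, the smallest two-sided p an exact permutation test allows is 0.1, and among the 30 genes these 7 reached it. Without both replicate 3 libraries 6 genes were higher and 7 lower, or 20% and 23.3% of 30, against 23.7% and 19.4% of all genes then tested. Without NCI-H1650Re replicate 1, 6 were higher and 4 lower, or 20% and 13.3%, against 13.1% and 11.8% of all genes. Without NCI-H1650Re replicate 3, 5 were higher and 6 lower, or 16.7% and 20%, against 21% and 17% of all genes.

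**Figure D1:**
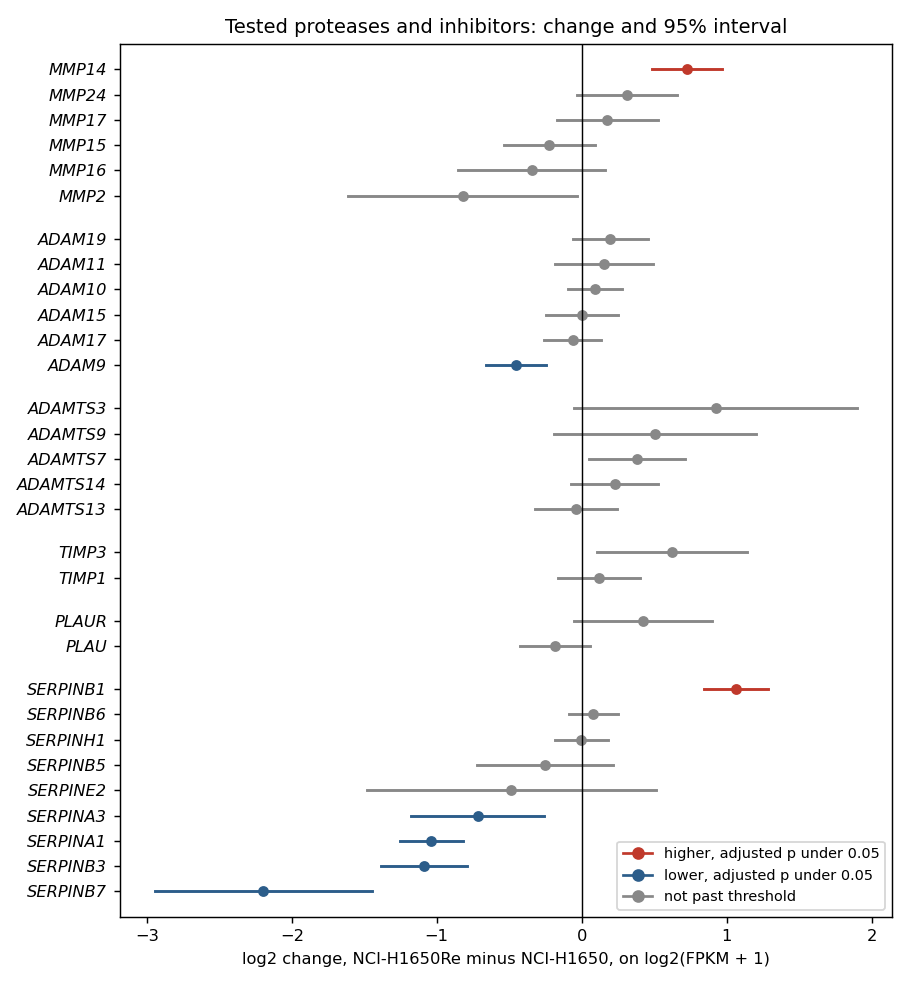
Log2 change (x axis, on log2(FPKM + 1), NCI-H1650Re minus NCI-H1650) of the 30 tested proteases and inhibitors, by class from MMPs at the top to serpins at the bottom. Points are limma estimates and lines their unadjusted 95% intervals; MMP14 and SERPINB1 were higher (red) and ADAM9 and 4 serpins lower (blue), with SERPINB7 at -2.20.

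Among the MMPs, the membrane-bound collagenase MMP14, which also activates the MMP2 proenzyme at the cell surface, was higher in NCI-H1650Re. Its level was 10.7, 13.6 and 14.1 FPKM in NCI-H1650Re replicates 1, 2 and 3, against 7.13, 7.18 and 7.61 FPKM in those of NCI-H1650. Every NCI-H1650Re library lay above every parental one, and the ratio of the means was 1.75. The log2 change was 0.72 (SE 0.10, limma adjusted p = 0.00257). Of its 24 nearest tested neighbours on chromosome 14, 4 were higher and 2 lower.

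MMP2, the gelatinase that MMP14 activates, had the highest mean level of the class in both lines and did not pass. It was at 29.6, 27.8 and 11.4 FPKM in NCI-H1650Re, in replicate order, and 41.0, 46.6 and 29.1 FPKM in NCI-H1650. Replicate 3 was the lowest library of each line, and the lines overlapped where NCI-H1650 replicate 3 lay below the first NCI-H1650Re library. The log2 change was -0.82 (SE 0.34, limma adjusted p = 0.105); without NCI-H1650Re replicate 3 alone it was -0.40 and MMP2 did not pass (limma adjusted p = 0.109). Without both replicate 3 libraries it was -0.59 and MMP2 passed (limma adjusted p = 0.00165). Its neighbours on chromosome 16 were lower as well: 17 of the 24 nearest tested genes were lower and 2 higher, with a median log2 change of -0.59. MMP15, a membrane-type enzyme on the same chromosome, had 19 lower and 0 higher neighbours with a median of -0.36, and was itself at 9.53 ± 0.742 FPKM in NCI-H1650Re and 11.4 ± 2.45 FPKM in NCI-H1650 (SD, n = 3). Whether these shared shifts bear on MMP2 and MMP15 was not tested.

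The other tested members of the class, MMP16, MMP17 and MMP24, are also membrane-type enzymes and lay between 0.29 and 3.16 FPKM in the 6 libraries. None of them passed with all libraries, but MMP16 was lower without NCI-H1650Re replicate 3 (limma adjusted p = 0.0270) and MMP24 higher without NCI-H1650Re replicate 1 (0.0123). MMP24 is overlapped on the opposite strand by MMP24OS, and no source used here says that counting used strand. The gelatinase MMP9, with MMP19 and MMP25, averaged under 1 FPKM in either line. These 3 genes lay between 0.39 and 0.95 FPKM in every library, and for each the lines overlapped. MMP28, an epithelial secreted MMP also known as epilysin, was at 0.13, 0.18 and 0.14 FPKM in NCI-H1650Re, against 0.52, 0.55 and 0.53 FPKM in NCI-H1650. It was too low to be tested, the lines did not overlap, and the counts behind it were 6, 9 and 6 in NCI-H1650Re, against 27, 25 and 21 in NCI-H1650, in the authors' deposited table.

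ADAM9, a sheddase and the most highly expressed ADAM in these cells, was lower in NCI-H1650Re. The 3 NCI-H1650Re libraries gave 58.2, 61.2 and 67.0 FPKM and the 3 parental ones 91.4, 88.9 and 76.6 FPKM. The groups did not overlap, and the ratio of means was 0.726 (log2 change -0.45, SE 0.09, limma adjusted p = 0.00876). The call held under every alternative setting and with any 1 library left out. Of its 24 nearest tested neighbours 2 were higher and 2 lower.

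ADAM10 and ADAM17, the main sheddases of Notch receptors, cadherins and EGFR ligands, did not pass. For ADAM10 the libraries gave 21.7, 21.9 and 23.6 FPKM in NCI-H1650Re and 22.6, 21.2 and 19.0 FPKM in NCI-H1650, with a 95% interval of the log2 change from -0.09 to 0.28. For ADAM17 they gave 12.03, 12.5 and 13.9 FPKM in NCI-H1650Re and 14.5, 13.2 and 12.6 FPKM in NCI-H1650, with an interval from -0.26 to 0.13. The limma adjusted p was 0.404 for ADAM10 and 0.605 for ADAM17. ADAM15, a disintegrin with an integrin-binding site, was at 25.5 ± 2.21 FPKM in NCI-H1650Re and 25.5 ± 3.46 FPKM in NCI-H1650, and ADAM19 at 4.22 ± 0.662 and 3.54 ± 0.340 FPKM in the same order of lines (SD, n = 3). Neither passed, nor did ADAM11, a member without protease activity, at 0.91 to 1.79 FPKM.

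The remaining 5 ADAM genes were under the limit for testing. ADAM22, a catalytically inactive receptor of the neuronal LGI proteins, was at 0.26, 0.16 and 0.19 FPKM in NCI-H1650Re, against 0.87, 0.91 and 0.74 FPKM in NCI-H1650. All NCI-H1650Re values lay below the parental ones. The deposited counts of the gene were 49, 33 and 32 in NCI-H1650Re and 182, 165 and 118 in NCI-H1650, and the authors' deposited table marks it as down (log2 fold change -2.08). ADAM8, ADAM12, ADAM23 and ADAM28 ranged from 0.04 to 1.15 FPKM over all libraries. For ADAM23 and ADAM28 every NCI-H1650Re library lay below every parental one, and for ADAM8 and ADAM12 the lines overlapped.

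None of the 5 tested ADAMTS genes passed, and the 3 NCI-H1650Re libraries disagreed for several of them. ADAMTS3, a procollagen N-propeptidase that also helps to activate the lymphatic growth factor VEGFC, was at 3.46, 2.57 and 0.25 FPKM in NCI-H1650Re replicates 1, 2 and 3, against 0.48, 0.51 and 0.30 FPKM in NCI-H1650. Replicates 1 and 2 of NCI-H1650Re were above all parental libraries, whereas replicate 3 was below all of them. The deposited counts were 450, 355 and 29 in NCI-H1650Re, against 69, 63 and 33 in NCI-H1650. The log2 change was 0.93 (SE 0.42, limma adjusted p = 0.132); without NCI-H1650Re replicate 3 it was 1.48 (limma adjusted p = 0.000398), and without both replicate 3 libraries 1.42 (0.00029). The authors' deposited table marks ADAMTS3 as up (log2 fold change 2.24, FDR 0.00145).

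ADAMTS12, which is known to cut the cartilage matrix protein COMP, showed the same spread of libraries at a level too low for testing. It was at 1.11, 1.05 and 0.02 FPKM in NCI-H1650Re and 0.14, 0.24 and 0.23 FPKM in NCI-H1650, and again NCI-H1650Re replicate 3 was the lowest of all. In the fit with all libraries and no limit on level its limma adjusted p was 0.228. Without NCI-H1650Re replicate 3 it came above the limit, through NCI-H1650Re only, and is counted above among the genes higher in the fits without replicate 3 libraries. ADAMTS9, which cuts proteoglycans such as versican, varied the other way. Its NCI-H1650Re libraries gave 2.89, 5.55 and 9.11 FPKM, against 3.66, 3.05 and 3.77 FPKM in NCI-H1650. Here NCI-H1650Re replicate 3 was the highest library and replicate 1 the lowest, and without replicate 1 ADAMTS9 passed (limma adjusted p = 0.0158). ADAMTS7, another COMP-cutting member, was at 2.73, 3.01 and 2.01 FPKM in NCI-H1650Re and 1.53, 1.53 and 2.17 FPKM in NCI-H1650 and overlapped only through the 2 replicate 3 libraries. It was higher without NCI-H1650Re replicate 3 (limma adjusted p = 0.0181), without NCI-H1650 replicate 3, and without both replicate 3 libraries (0.00246). ADAMTS13, the protease of von Willebrand factor, and ADAMTS14, a procollagen N-propeptidase, lay between 0.64 and 2.03 FPKM. Among untested members ADAMTS16 was at 0.04, 0.08 and 0.09 FPKM in NCI-H1650Re and 0.70, 0.67 and 0.61 FPKM in NCI-H1650. Those lines did not overlap, and the deposited counts were 4, 9 and 8 in NCI-H1650Re, against 78, 65 and 52 in NCI-H1650. ADAMTS10 and ADAMTS15 were between 0.46 and 1.30 FPKM, with overlapping lines.

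**Figure D2:**
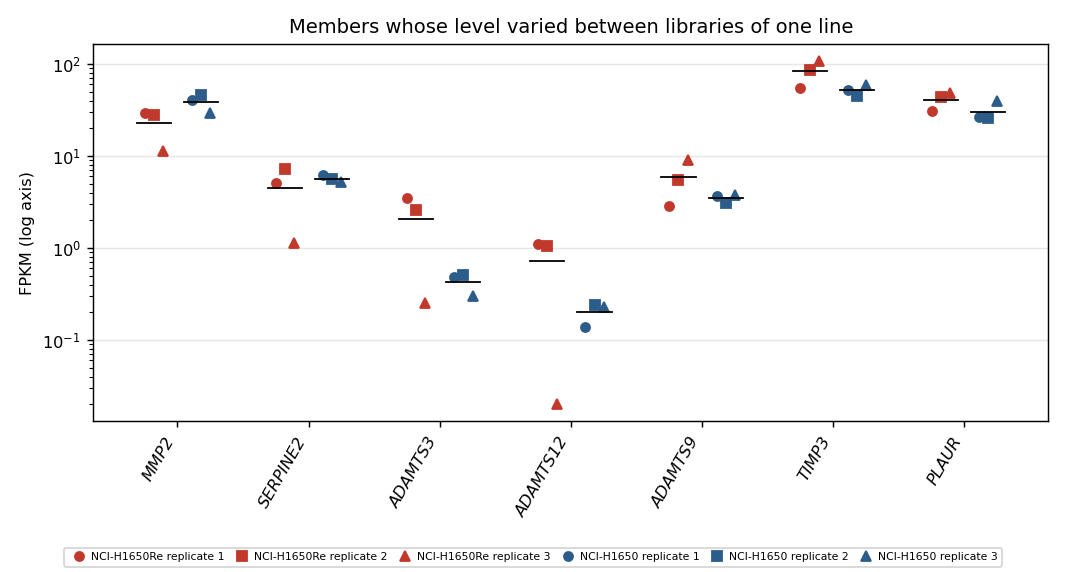
Level (y axis, FPKM, log axis) of 7 members in each library, with NCI-H1650Re in red left of NCI-H1650 in blue; black bars are line means. The 7 were chosen after their values were seen, for their spread within a line: NCI-H1650Re replicate 3 (red triangle) is the lowest library for MMP2, SERPINE2, ADAMTS3 and ADAMTS12 and the highest for ADAMTS9, TIMP3 and PLAUR.

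The inhibitors TIMP1 and TIMP3 were among the most abundant transcripts described here. TIMP3, which binds the matrix and blocks ADAM17 as well as MMPs, was at 55.4, 87.2 and 107 FPKM in NCI-H1650Re and 52.7, 44.9 and 58.5 FPKM in NCI-H1650. Replicates 2 and 3 of NCI-H1650Re exceeded every parental library, while replicate 1 lay within the parental range. The log2 change was 0.63 (SE 0.22, limma adjusted p = 0.0686), and without NCI-H1650Re replicate 1 it was 0.89 (limma adjusted p = 0.00486). TIMP1, a soluble MMP inhibitor, was at 78.5, 70.1 and 57.0 FPKM in NCI-H1650Re and 58.4, 68.8 and 60.8 FPKM in NCI-H1650, and the lines overlapped (95% interval of the log2 change from -0.16 to 0.40, limma adjusted p = 0.485). TIMP1 is overlapped on the opposite strand by SYN1, which was measured here, and TIMP3 by SYN3, which is not among the genes measured here. ADAM17 (by IAH1), ADAMTS7 (MORF4L1), ADAMTS13 (REXO4), MMP28 (TAF15) and PLAU (C10orf55) are also overlapped on the opposite strand by a gene measured here. The effect of these overlaps on the levels was not tested.

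Neither gene of the urokinase system passed. The protease PLAU (urokinase) was at 22.0, 21.9 and 17.6 FPKM in NCI-H1650Re and 23.4, 21.5 and 25.3 FPKM in NCI-H1650. Its lines overlapped (log2 change -0.19, SE 0.10, limma adjusted p = 0.210). PLAUR, the receptor that holds urokinase at the cell surface, was at 30.7, 44.1 and 48.6 FPKM in NCI-H1650Re and 26.2, 25.8 and 39.2 FPKM in NCI-H1650. It overlapped through NCI-H1650 replicate 3, which was higher than NCI-H1650Re replicate 1. The log2 change was 0.42 (SE 0.21, limma adjusted p = 0.155), and PLAUR passed without NCI-H1650Re replicate 1 (limma adjusted p = 0.0430) and without both replicate 3 libraries (0.0336). SERPINE2, a secreted inhibitor of urokinase and thrombin, was at 5.08, 7.18 and 1.14 FPKM in NCI-H1650Re and 6.18, 5.57 and 5.18 FPKM in NCI-H1650. NCI-H1650Re replicate 3 lay far below the rest, and without it the log2 change was 0.09, against -0.48 with it (limma adjusted p = 0.420 with it and 0.627 without).

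Of 9 serpins tested, SERPINB1 was higher, SERPINA1, SERPINA3, SERPINB3 and SERPINB7 were lower and 4 did not pass, where 30.5% of all tested genes passed in either direction. SERPINA1, SERPINA3 and SERPINB3 entered the test only through NCI-H1650, where they are high, so the count says nothing about serpins as a class. The collagen chaperone SERPINH1 had the highest mean level of all members in both lines, at 86.2 ± 7.22 FPKM in NCI-H1650Re and 86.3 ± 3.06 FPKM in NCI-H1650 (SD, n = 3), and its log2 change had a 95% interval from -0.19 to 0.18. Levels of the secreted clade A members were between 0.61 and 3.22 FPKM. SERPINA1, antitrypsin, whose main target is neutrophil elastase, was at 0.98, 1.09 and 0.85 FPKM in NCI-H1650Re, against 2.82, 3.22 and 3.10 FPKM in NCI-H1650. Every NCI-H1650Re library was below every parental one (log2 change -1.04, SE 0.09, limma adjusted p = 0.000493). SERPINA3, antichymotrypsin, an inhibitor of cathepsin G, was at 0.61, 0.82 and 0.70 FPKM in NCI-H1650Re and 2.15, 2.49 and 1.02 FPKM in NCI-H1650. The lines did not overlap, but NCI-H1650 replicate 3 lay nearer to NCI-H1650Re than to its own line (log2 change -0.72, SE 0.20, limma adjusted p = 0.0298). The call ended with quantile normalization (limma adjusted p = 0.0520), without NCI-H1650Re replicate 1 (0.0707) or 2 (0.0726) and without NCI-H1650 replicate 1 (0.101) or 2 (0.107). SERPINF1, a non-inhibitory secreted serpin, was at 0.06 to 0.22 FPKM.

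Clade B serpins act mostly inside cells and lie in 2 gene clusters, on chromosomes 18 and 6. On chromosome 18, SERPINB7, a clade B serpin of keratinocytes that is mutated in an inherited palmoplantar keratosis, had the largest change of all tested members on the log2(FPKM + 1) scale. The neighbouring SERPINB3 changed more as a ratio of means (0.0633, against 0.188 for SERPINB7) and with a pseudocount of 0.1 (-2.94, against -2.60). The level of SERPINB7 was 1.12, 2.50 and 4.99 FPKM in NCI-H1650Re replicates 1, 2 and 3, against 16.8, 15.0 and 14.1 FPKM in NCI-H1650. The lines were far apart, although the NCI-H1650Re libraries differed among themselves more than the parental ones did. The difference passed (log2 change -2.20, SE 0.32, limma adjusted p = 0.00277), and the deposited counts were 50, 119 and 199 in NCI-H1650Re, against 825, 638 and 528 in NCI-H1650. SERPINB3, squamous cell carcinoma antigen, which inhibits cysteine proteases such as cathepsin L, was at 0.11, 0.05 and 0.09 FPKM in NCI-H1650Re and 0.98, 1.48 and 1.49 FPKM in NCI-H1650. The deposited counts were 4, 2 and 3 in NCI-H1650Re, against 39, 51 and 45 in NCI-H1650 (log2 change -1.09, SE 0.13, limma adjusted p = 0.00121). SERPINB3 has a near-identical neighbour, SERPINB4, and its value is uncertain to the extent that reads were split between them.

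SERPINB8, which can inhibit furin, was too low to be tested and was at 0.13, 0.37 and 0.27 FPKM in NCI-H1650Re, against 0.61, 0.79 and 1.18 FPKM in NCI-H1650, with no overlap. SERPINB5, maspin, a non-inhibitory epithelial serpin of the same cluster, did not pass: it was at 4.01, 7.28 and 7.79 FPKM in NCI-H1650Re and 7.75, 6.81 and 8.03 FPKM in NCI-H1650, and only NCI-H1650Re replicate 1 lay below the parental range (log2 change -0.25, 95% interval from -0.72 to 0.21, limma adjusted p = 0.368). Around SERPINB7, 7 of the 24 nearest tested genes were lower and 1 higher, with a median log2 change of -0.19; SERPINB3 and SERPINB5 are among these neighbours.

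The starts of the chromosome 18 genes are shown because the 3 NCI-H1650Re libraries lay below the parental ones for SERPINB3, SERPINB7 and SERPINB8 but not for SERPINB5. Each line gives the 210 bases before a RefSeq transcript start, 5′ to 3′ on the gene's strand (GRCh38.p14), with matches to TGANTCA in capitals. This broad pattern takes in TGAGTCA, a binding sequence of AP-1 (dimers of FOS and JUN proteins). The stretches TGAATCA and TGATTCA also match the pattern but differ from that sequence in the middle base. TGANTCA reads the same on both strands, so that one search covers them.
SERPINB5, chr18:63476748-63476957, plus strand: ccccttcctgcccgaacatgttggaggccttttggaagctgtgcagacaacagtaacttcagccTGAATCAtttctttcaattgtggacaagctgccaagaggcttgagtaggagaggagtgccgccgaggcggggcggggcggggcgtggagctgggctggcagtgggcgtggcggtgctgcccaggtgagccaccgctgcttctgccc
SERPINB3, chr18:63661894-63662103, minus strand: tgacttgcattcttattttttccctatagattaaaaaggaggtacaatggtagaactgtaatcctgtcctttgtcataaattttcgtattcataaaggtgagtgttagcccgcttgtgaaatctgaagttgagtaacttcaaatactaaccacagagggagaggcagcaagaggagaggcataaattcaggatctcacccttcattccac
SERPINB7, middle start, chr18:63775208-63775417, plus strand: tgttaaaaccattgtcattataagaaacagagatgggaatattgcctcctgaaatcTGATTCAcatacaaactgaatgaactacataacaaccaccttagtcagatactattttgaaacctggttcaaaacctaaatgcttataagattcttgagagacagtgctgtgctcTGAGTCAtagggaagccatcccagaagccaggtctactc
SERPINB7, downstream start, chr18:63777571-63777780, plus strand: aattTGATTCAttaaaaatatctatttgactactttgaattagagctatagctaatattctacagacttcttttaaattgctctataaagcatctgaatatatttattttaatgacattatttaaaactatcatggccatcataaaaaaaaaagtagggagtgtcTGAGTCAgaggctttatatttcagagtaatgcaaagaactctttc
SERPINB8, chr18:63969871-63970080, plus strand: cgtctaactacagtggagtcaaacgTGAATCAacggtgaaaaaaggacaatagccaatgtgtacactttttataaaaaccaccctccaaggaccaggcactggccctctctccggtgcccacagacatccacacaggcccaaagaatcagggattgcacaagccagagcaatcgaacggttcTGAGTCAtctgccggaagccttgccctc

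The matches nearest to a start were TGAGTCA, beginning 39 and 45 bases before the middle and downstream starts of SERPINB7 and 28 bases before that of SERPINB8. The match of SERPINB5 was TGAATCA, 146 bases before its start, and neither SERPINB3 nor the upstream start of SERPINB7 had one in this window. Promoters were found for 32 of the 46 genes, with 42 windows of 250 bases before to 50 after a start. Of these, 6 windows (14.3%) held TGANTCA, against 7.71% of the 35116 promoters in the table, and PLAUR and ADAMTS12 held the others. Counted by gene, with SERPINB7 once, 5 of the 32 (15.6%) held it, against 9.37% of all genes with a promoter. A match is a description of the sequence, not a measured site.

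**Figure D3:**
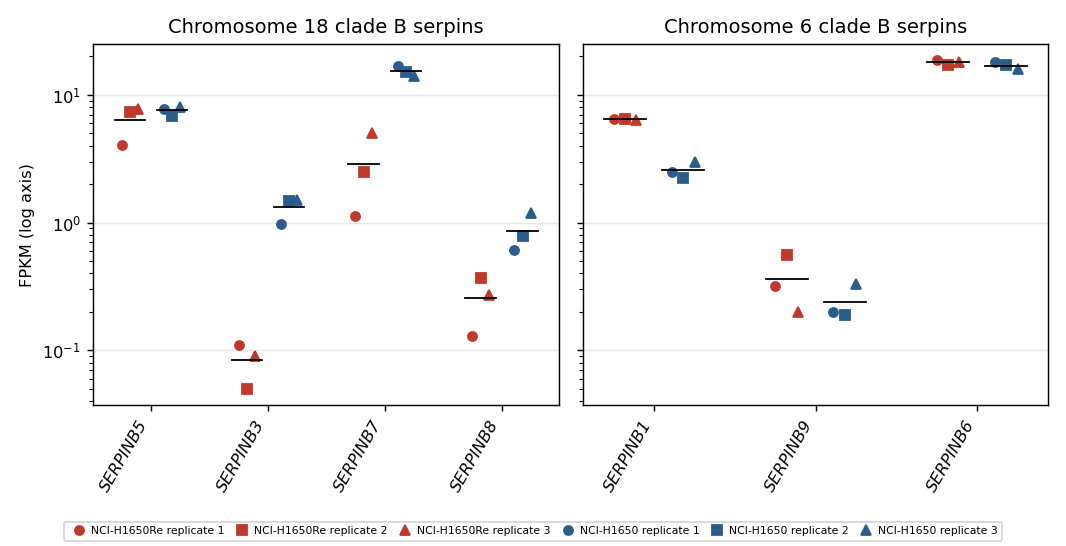
Level (y axis, FPKM, log axis) of clade B serpins in each library, in gene order along chromosome 18 (left) and chromosome 6 (right), with NCI-H1650Re in red left of NCI-H1650 in blue and black bars for line means. For SERPINB3, SERPINB7 and SERPINB8 the 3 NCI-H1650Re libraries lie below all NCI-H1650 ones and for SERPINB1 above them, whereas the lines overlap for SERPINB5, SERPINB6 and SERPINB9.

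On chromosome 6, SERPINB1, an inhibitor of neutrophil elastase, was higher in NCI-H1650Re. It was at 6.50, 6.44 and 6.35 FPKM in NCI-H1650Re and 2.48, 2.23 and 2.99 FPKM in NCI-H1650. The NCI-H1650Re libraries were nearly equal and all above the parental ones, with a ratio of means of 2.51 (log2 change 1.06, SE 0.09, limma adjusted p = 0.000484). Deposited counts were 346, 364 and 301 in NCI-H1650Re, against 145, 113 and 133 in NCI-H1650. Its neighbours SERPINB6, an inhibitor of cathepsin G, and SERPINB9, the inhibitor of granzyme B, are not among the genes past the threshold. SERPINB6 was at 17.9 ± 0.677 FPKM in NCI-H1650Re and 16.9 ± 1.09 FPKM in NCI-H1650 (SD, n = 3, limma adjusted p = 0.436), and SERPINB9 at 0.19 to 0.56 FPKM over all libraries, too low to be tested. Of the 18 nearest tested genes around SERPINB1, 7 were higher and 0 lower, with a median log2 change of 0.12.

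**Figure D4:**
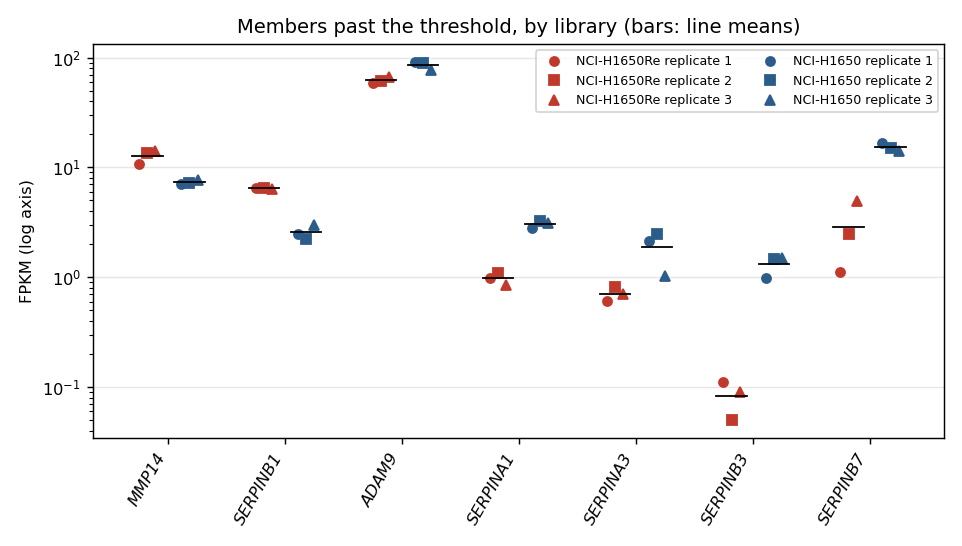
Level (y axis, FPKM, log axis) of the 7 members past the threshold in each library, with NCI-H1650Re in red left of NCI-H1650 in blue and black bars for line means. The lines do not overlap for any of the 7; SERPINB3 and SERPINB7 lie farthest apart, and ADAM9 has the smallest gap between the lines on this axis, from 67.0 FPKM in NCI-H1650Re to 76.6 FPKM in NCI-H1650.

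The 16 members under the limit for testing ranged from 0.02 to 1.30 FPKM, and for 6 of them (37.5%) the lines did not overlap, against 35.5% of all 895 genes under the limit. In a limma fit over all 12659 genes with no limit on level, ADAM22, ADAMTS16, MMP28 and SERPINB8 were also lower. That fit called 2 of the 46 genes higher (4.35%, against 15.4% of all genes) and 9 lower (19.6%, against 13.9%). The authors' deposited table marks genes with an FDR under 0.01 and a log2 fold change of at least 1 in size. It marks 8 of the 46 as down (17.4%, against 4.27% of all its genes) and 2 as up (4.35%, against 2.53%). The 8 are MMP28, ADAM22, ADAMTS16, SERPINA1, SERPINA3, SERPINB3, SERPINB7 and SERPINB8, and the 2 are ADAMTS3 and SERPINB1. MMP14 and ADAM9 are not marked there; their log2 fold changes in the authors' deposited table were 0.78 and -0.49.

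Summed over each class, levels give the amount of protease and inhibitor transcripts per library; these sums are described without a test. TIMP transcripts added up to 134, 157 and 164 FPKM in NCI-H1650Re, against 111, 114 and 119 FPKM in NCI-H1650. MMP transcripts added up to 55.7, 60.4 and 42.4 FPKM in NCI-H1650Re, against 65.1, 71.7 and 57.8 FPKM in NCI-H1650. MMP2 was their largest part, except in NCI-H1650Re replicate 3, where MMP14 was. The TIMP sum was thus higher in every NCI-H1650Re library, and the MMP sums overlapped. ADAM transcripts, of which ADAM9 was the largest, summed to 123, 129 and 138 FPKM in NCI-H1650Re and 158, 155 and 144 FPKM in NCI-H1650. ADAMTS transcripts summed to 13.8, 17.4 and 15.4 FPKM in NCI-H1650Re and 10.1, 10.1 and 11.4 FPKM in NCI-H1650. Serpins summed to 116, 133 and 132 FPKM in NCI-H1650Re and 141, 142 and 142 FPKM in NCI-H1650. Most of that was SERPINH1, which inhibits no enzyme and averaged 86.2 FPKM in NCI-H1650Re and 86.3 FPKM in NCI-H1650. SERPINB7 averaged 2.87 FPKM in NCI-H1650Re and 15.3 FPKM in NCI-H1650. The lines did not overlap for the ADAM, ADAMTS and serpin sums, but a sum need not reflect each gene of its class. Among tested genes, the lines did not overlap for 1 of 6 ADAM genes (ADAM9) and 0 of 5 ADAMTS genes. For TIMP and serpin genes this held for 0 of 2 and 5 of 9, against 47.2% of all tested genes. PLAU and PLAUR together overlapped, at 52.7, 66.0 and 66.3 FPKM in NCI-H1650Re and 49.7, 47.3 and 64.5 FPKM in NCI-H1650.

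**Figure D5:**
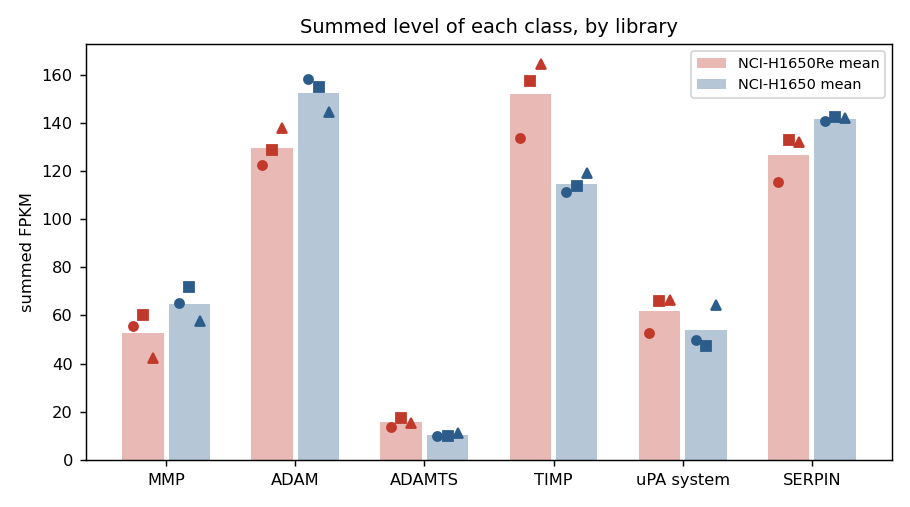
Summed FPKM (y axis, from 0) of the members of each class; bars are line means, with NCI-H1650Re in red left of NCI-H1650 in blue, and circles, squares and triangles are replicates 1, 2 and 3. "uPA system" is PLAU plus PLAUR, and TIMP sums lie at 134 to 164 in NCI-H1650Re and 111 to 119 in NCI-H1650.

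Other genes of these pathways, from a list of 67 that holds activators, receptors, further proteases, their inhibitors and shed ligands, were tested in the same fit. Of 55 tested, 7 were higher (12.7%, against 16.6% of all genes) and 18 lower (32.7%, against 13.9%), and 30 did not pass. The median log2 change was -0.16, against 0.03 for all tested genes. The list was drawn up with earlier results of these data known, so these shares only describe the genes on it. The 6 largest changes past the threshold were falls of A2ML1, ITGB6, DPP4 and SORL1 and rises of TFPI2 and PAPPA. A2ML1, a broad protease inhibitor of stratified epithelium, was at 1.32, 2.83 and 4.57 FPKM in NCI-H1650Re and 19.8, 18.9 and 20.2 FPKM in NCI-H1650 (log2 change -2.49, limma adjusted p = 0.000980). TFPI2, an inhibitor of plasmin and other serine proteases, was at 17.2 ± 3.41 FPKM in NCI-H1650Re and 4.94 ± 2.97 FPKM in NCI-H1650 (SD, n = 3, log2 change 1.71, limma adjusted p = 0.00612). For both genes the lines did not overlap.

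ITGB6, a subunit of an integrin that activates latent TGF-beta, was at 0.273 ± 0.275 FPKM in NCI-H1650Re and 2.49 ± 0.503 FPKM in NCI-H1650, and the surface peptidase DPP4 at 8.23 ± 3.44 FPKM in NCI-H1650Re and 21.4 ± 0.968 FPKM in NCI-H1650. SORL1, a sorting receptor that binds urokinase and its receptor, was at 7.25 ± 0.723 FPKM in NCI-H1650Re and 16.7 ± 1.43 FPKM in NCI-H1650. PAPPA, a metalloproteinase that cuts IGF-binding proteins, was at 1.58 ± 0.473 FPKM in NCI-H1650Re and 0.213 ± 0.0321 FPKM in NCI-H1650 (SD, n = 3 for each line). Their log2 changes were -1.47, -1.35, -1.10 and 1.07 in this order, with limma adjusted p = 0.00139, 0.00558, 0.000419 and 0.00198. ITGB6 reached a mean of 1 FPKM only in NCI-H1650 and PAPPA only in NCI-H1650Re. Each of these genes thus entered the test only through the line where it is high.

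Genes that prepare the proteases for action (furin-like convertases, the iRhom genes RHBDF1 and RHBDF2, and tetraspanins that bind ADAM10) were grouped after their values were seen. Of 11 such genes 10 were tested: FURIN, PCSK6, RHBDF1 and TSPAN17 were lower and the other 6 did not pass, RHBDF2 among them (log2 change 0.39, limma adjusted p = 0.0591). Among all tested genes 13.9% were lower and 16.6% higher. Because the group was formed with the values in view, its count says nothing about these genes as a set. FURIN, the convertase that removes the propeptide of MMP14 and of several ADAM and ADAMTS enzymes, was at 24.0, 26.9 and 29.1 FPKM in NCI-H1650Re and 40.7, 47.6 and 49.2 FPKM in NCI-H1650. RHBDF1, which helps ADAM17 to mature, was at 15.1, 16.3 and 15.2 FPKM in NCI-H1650Re and 28.3, 30.0 and 29.6 FPKM in NCI-H1650. Both were lower in every NCI-H1650Re library (log2 change -0.76, limma adjusted p = 0.00189 for FURIN; -0.87 and 0.000264 for RHBDF1). Counts of the pathway genes changed when libraries were left out, and not always in the same direction as the shares of all genes. Without replicate 3 of NCI-H1650, 9 pathway genes were higher, against 7 with all libraries, but 14.2% of all genes, against 16.6%. Leaving out replicate 2 of NCI-H1650Re left 2 pathway genes higher and 11 lower, with 7.88% and 8.26% of all genes. Leaving out replicate 1 of NCI-H1650 left 2 higher and 14 lower, with 10.6% and 9.66% of all genes, and leaving out its replicate 2 left 2 higher and 10 lower, with 7.64% and 7.53%. Without both replicate 3 libraries 12 were higher and 22 lower, with 23.7% and 19.4% of all genes.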

How the data were processed

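RNA was measured in 3 libraries of NCI-H1650Re and 3 of NCI-H1650. FPKM values, log2 fold changes and FDR values are those the authors deposited for 12659 genes. Fragment counts are those the authors deposited for the 860 genes they marked, so that no count test over all genes was run. HISAT2, Bowtie2, RSEM and DESeq2 are named in the submitters' processing notes, without versions. Those notes name the mouse build mm10, although the gene identifiers are human; the human build and use of strand are not given in the sources used here. All 46 members were matched by Ensembl identifier to GENCODE 29.

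The 11764 genes that averaged 1 FPKM or more in NCI-H1650Re or in NCI-H1650 were fitted with limma 3.58.1 in R 4.3.3, with a variance trend, on log2(FPKM + 1), and p-values were adjusted over all of them by Benjamini-Hochberg at 0.05. The fit was tested on simulated data for this comparison over 11764 genes: 46%, 90%, 98% and 100% of 50 genes each planted at log2 changes of 0.5, 1, 2 and 3 were found, and 6.18% of calls were false. Depth was estimated from 29 to 42 genes per library for which both a count and FPKM are given and 1 transcript is annotated. Neighbours are the 12 nearest tested genes on each side. Promoter sequences are RefSeq's, on GRCh38.p14.

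Every member may be named; members past the threshold and a set of well-known ones are given in full, as are the 6 pathway genes with the largest change past it. The members and lists were chosen with earlier results of these data known. MMP24OS, ADAMTSL3, ADAMTSL4 and ADAMTSL5 did not match the rule. Alternatives were other pseudocounts, limits on level, scalings, no variance trend, a replicate block and leaving out libraries.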

Additional observations from a re-analysis of the deposited data

How the results depend on the processing

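MMP14, SERPINB1, ADAM9 and SERPINB7 passed, in the same direction, under every alternative run, and SERPINA1 and SERPINB3 under every one that tested them; a limit of 5 FPKM left both out. The number of members lower was 9 with no limit on level and 2 with a limit of 5 FPKM. Leaving out single libraries gave 2 to 6 members higher and 4 to 6 lower, and 2 to 9 pathway genes higher and 10 to 18 lower, while 7.64% to 21.0% of all genes were higher and 7.53% to 17.0% lower. Without both replicate 3 libraries 6 members and 12 pathway genes were higher, with 23.7% of all genes. Under at least 1 alternative 6 tested members turned direction, 0 of them past the threshold in either fit: SERPINB5 (-0.40 to 0.00297 over single libraries left out), SERPINE2 (-0.88 to 0.0889, and 0.0381 without both replicate 3 libraries), ADAM10 (-0.00635 without both replicate 3 libraries), and ADAM15, ADAMTS13 and SERPINH1, whose turned changes were all smaller in size than 0.0889; the cause was not tested. With the replicate number as a block, 4 members were higher and 6 lower, adding PLAUR, TIMP3 and MMP2 (limma adjusted p = 0.0420, 0.0459 and 0.0160). Same-numbered libraries of the 2 lines correlated at 0.173, -0.0369 and 0.211 in their deviations, and 3 of 6 correlated best with their own number. These values do not decide whether the numbers mark pairs. The main fit had no block because the labels do not say that the numbers mark a shared day or batch. At this depth, some members under 1 FPKM rest on few fragments. MMP28 had 27, 25 and 21 in NCI-H1650, whereas ADAM22, also under 1 FPKM, had 182, 165 and 118 there. Having 3 libraries a line also limits what can be detected.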
